A study of Mus musculus with 9 samples.

Results

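A set of 10 genes was followed through whole-brain RNA-seq of control, diabetic and baclofen-treated mice. The set joins genes of the meninges, the membranes that cover the brain, to genes that the study shows as baclofen-responsive. These are 10 of the 53465 genes in the tables of counts and FPKM. Mpzl2, Slc47a1 and Gpc6 are shown by the study as baclofen-responsive, and its text does not say how they were picked. They are treated here as chosen by their levels in these same DNP, CON and BAC libraries. Slc6a13, Slc13a4, Slc22a6, Aldh1a2, Foxc1, Lum and Igf2 are known genes of meningeal tissue, and they were chosen with earlier results of the same libraries in view. Values of the members in these comparisons are therefore given as a description, without a test. The question was whether the baclofen-responsive genes followed the content of meningeal tissue in each library.

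Each of the 9 libraries came from a separate male C57BL/6 mouse, 7 weeks old at the start. CON mice (n = 3) received saline. DNP mice (n = 3) ate a diet with 60% fat for 4 weeks, were injected on each of 7 days with 50 mg/kg streptozotocin, which destroys insulin-making cells of the pancreas, and then received saline. BAC mice (n = 3) had the same diet and streptozotocin and then, on each of 7 days, 8 mg/kg of baclofen, a drug that activates GABA-B receptors. Diet and streptozotocin were given together, so their effects cannot be told apart, and no group received baclofen without them. Diabetic mice were enrolled by blood glucose and pain thresholds. The labelled tissue is whole brain, and how the meninges were handled during dissection is not given in the sources used here.

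The leptomeninges consist of layers of fibroblast-like cells on the surface of the brain, and related fibroblasts follow the larger vessels inward. They carry transporters that move amino acids, sulfate and organic ions between the cerebrospinal fluid, the blood and the brain, and they make retinoic acid, extracellular matrix and growth factors. Because they form a thin sheet, their share of a whole-brain sample depends in part on how much of the sheet stays with the tissue. In bulk samples, fewer cells of a type and less RNA per cell cannot be told apart.

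RefSeq promoter windows of 300 bases (GRCm38.p6) were found for 6 of the 10 genes, with 11 start sites. Mpzl2, Slc47a1, Gpc6 and Lum had no window, so the promoter results do not cover them. The 4 sequences below are shown because they span the range of CpG content among the members, with 3 transporters and an enzyme. The capitals mark CpG dinucleotides, and each is written along the strand of its gene. Slc6a13 lies at chr6:121300038-121300337 on the plus strand, Slc13a4 at chr6:35308077-35308376 on the minus strand, Slc22a6 at chr19:8617746-8618045 on the plus strand and Aldh1a2 at chr9:71215539-71215838 on the plus strand.
Slc6a13: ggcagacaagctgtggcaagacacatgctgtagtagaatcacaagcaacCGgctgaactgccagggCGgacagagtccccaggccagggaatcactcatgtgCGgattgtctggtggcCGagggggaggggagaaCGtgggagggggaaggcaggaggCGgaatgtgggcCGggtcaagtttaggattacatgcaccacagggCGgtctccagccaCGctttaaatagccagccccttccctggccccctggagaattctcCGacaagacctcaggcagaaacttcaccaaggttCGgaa
Slc13a4: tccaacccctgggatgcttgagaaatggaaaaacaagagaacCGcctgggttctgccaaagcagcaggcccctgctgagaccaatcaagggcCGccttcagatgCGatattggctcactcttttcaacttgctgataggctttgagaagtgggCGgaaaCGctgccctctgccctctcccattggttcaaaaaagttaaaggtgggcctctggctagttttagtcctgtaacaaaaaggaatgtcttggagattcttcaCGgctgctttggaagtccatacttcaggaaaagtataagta
Slc22a6: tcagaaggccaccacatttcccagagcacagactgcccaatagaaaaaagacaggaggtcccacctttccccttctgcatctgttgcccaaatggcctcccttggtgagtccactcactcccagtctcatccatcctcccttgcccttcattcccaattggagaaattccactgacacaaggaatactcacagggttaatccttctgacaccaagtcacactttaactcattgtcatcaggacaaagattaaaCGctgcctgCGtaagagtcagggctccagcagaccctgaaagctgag
Aldh1a2: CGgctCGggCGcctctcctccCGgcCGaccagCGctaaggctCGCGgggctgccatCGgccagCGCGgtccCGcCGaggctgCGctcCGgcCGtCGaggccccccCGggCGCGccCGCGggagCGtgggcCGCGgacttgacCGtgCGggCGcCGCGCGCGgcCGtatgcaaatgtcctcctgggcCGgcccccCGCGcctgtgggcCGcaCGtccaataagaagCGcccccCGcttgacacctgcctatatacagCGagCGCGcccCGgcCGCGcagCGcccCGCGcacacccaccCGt

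The window of Aldh1a2 held 50 CpG dinucleotides and that of Foxc1 32, against 11 for the first start of Slc6a13, 6 for Slc13a4 and 2 for Slc22a6. The median over all 32851 windows was 7. TAAACA, the core letters bound by forkhead factors such as FOXC1, was in none of the 11 member windows on either strand, and it was in 13.4% of all windows. AGGTCA, the half-site of nuclear receptors that include the retinoic acid receptors, was in the third window of Slc6a13 and the first of Igf2, and in 16.3% of all windows. TATAAA was in none of the 11 and in 13.6% of all windows. These matches describe letters in the windows only.

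Totals of 13107382 to 16008129 counts per library set the depth, and the biological coefficient of variation was 36.5%. All 10 genes passed the filter on low counts, which kept 18501 genes. In edgeR's quasi-likelihood test, 0 genes (0% of those tested) had an adjusted p under 0.05 in any of the comparisons of DNP with CON, of BAC with DNP and of BAC with CON. In that order, the numbers at an unadjusted p under 0.05 were 2067 (11.2%), 438 (2.37%) and 1436 (7.76%), and DESeq2, run without the low-count filter on 35095 genes, called 281 (0.801%), 3 (0.00855%) and 89 (0.254%) at an adjusted p under 0.05. Among those were 6, 1 and 0 members, a description since the members were chosen on these libraries. The DESeq2 percentages are of all genes entered, since its own filter on mean counts was left on before adjustment. Markers of brainstem and spinal cord stood out in DNP replicate 1 and BAC replicates 1 and 3, with list scores of 3.70, 4.89 and 5.02 against -2.53 to -1.67 in the other 6 libraries. A list score is the mean over the list's genes of log2 CPM (counts scaled to library size, here with TMM factors) minus that gene's mean over the 9 libraries. Scores of cerebellar markers ranged from -4.09 in DNP replicate 3 to 4.52 in CON replicate 2. All 9 cerebellar markers were lower in DNP than in CON (median log2 fold change -3.29) and all 9 higher in BAC than in DNP (median 2.57), the directions also seen in the members, though the groups overlapped for each marker. Levels of brain-region markers thus differed between libraries of the same group, and their part in the results was not tested beyond the fits given below.

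A group of 7 genes shared a pattern in which every DNP library lay below every CON and every BAC library. They were Mpzl2, Slc47a1, Gpc6, Slc6a13, Slc13a4, Slc22a6 and Igf2, 7 of the 10 members, and 1.63% of all tested genes had this pattern. In DNP versus CON alone, 7 of 10 members did not overlap, against 8.63% of all genes in that direction. In BAC versus DNP, 9 of 10 did not overlap, all but Foxc1, against 3.38%. BAC libraries were above every CON library for Mpzl2, Aldh1a2 and Lum, 3 of 10, against 7.21%, and 0 members were below every CON library, against 6.23%. The members were chosen with all 3 contrasts of these libraries in view, so nothing is read from any of the counts. The first 2 contrasts also share the 3 DNP libraries.

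**Figure D1:**
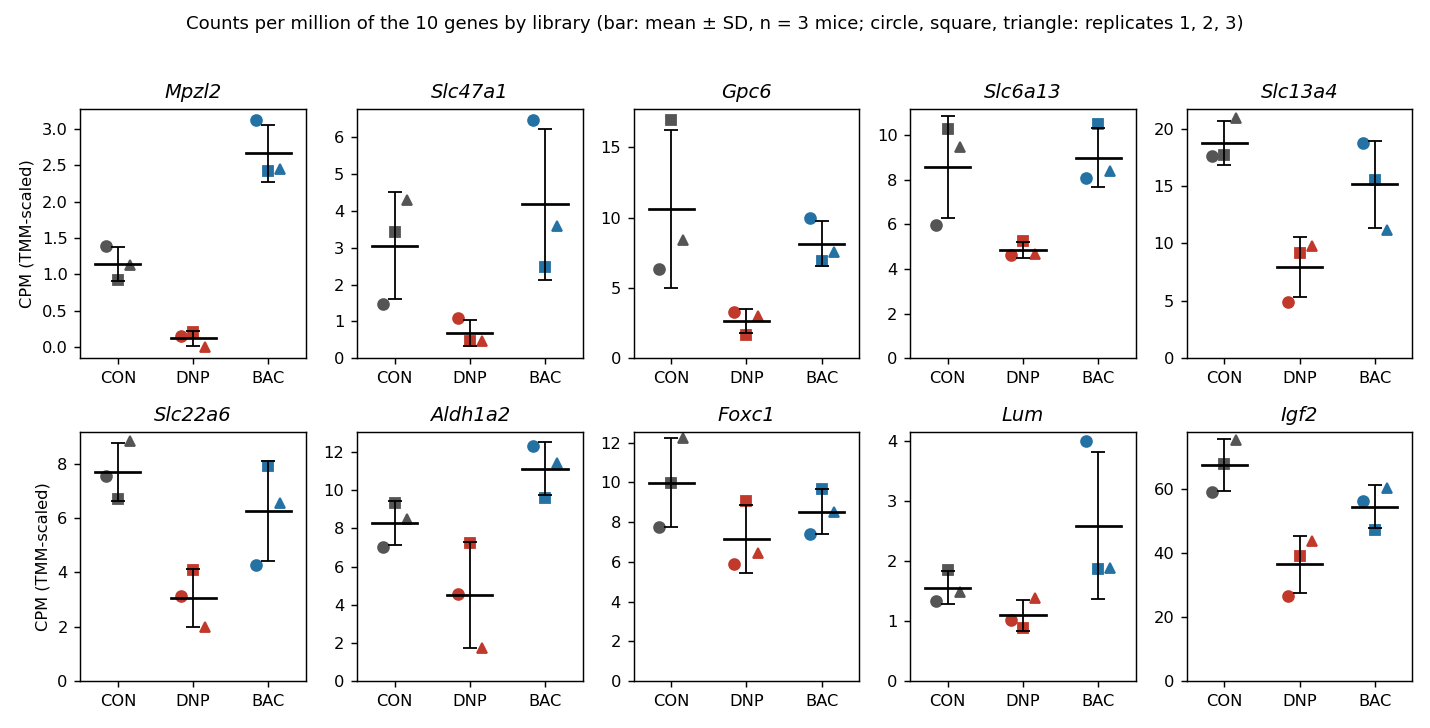
CPM (TMM-scaled, vertical axis) of the 10 genes in the CON, DNP and BAC libraries; each symbol is 1 mouse, and the bars give the mean ± SD (n = 3). For 7 genes all DNP symbols lie below all others, while for Aldh1a2, Foxc1 and Lum the DNP and CON symbols overlap.

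Mpzl2 (ENSMUSG00000032092, chr9:45039799-45054015, plus strand, GRCm38) encodes a cell adhesion protein of the myelin protein zero family, which is found in epithelia. Its counts were 21, 13 and 16 in CON, 2, 3 and 0 in DNP and 43, 35 and 39 in BAC. The 3 groups did not overlap, and the whole DNP group rested on 5 reads. Pooled over mice, CON was 10.1 times DNP (95% counting interval 4.04 to 32.4) and BAC was 23.2 times DNP (9.65 to 72.7), intervals that cover counting error only. The fitted log2 fold changes were -3.23 (SE 0.63) in DNP versus CON and 4.43 (SE 0.62) in BAC versus DNP, and they depend on the prior count. Without DNP replicate 2, which had 3 of the 5 reads, they were -3.89 and 5.10, and without DNP replicate 3 they were -2.65 and 3.86. BAC exceeded CON by 1.21 (SE 0.49) on the log2 scale. An exon of Gm48840 on the opposite strand overlaps Mpzl2, and the libraries do not mark strand, so reads of both cannot be told apart.

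Slc47a1 (ENSMUSG00000010122, chr11:61343401-61378345, minus strand) encodes MATE1, which exports organic cations in exchange for protons. Its counts were 22, 48 and 61 in CON, 15, 7 and 7 in DNP and 89, 36 and 57 in BAC. CON and BAC overlapped, and the highest DNP count was in replicate 1, a library with brainstem markers. The log2 fold changes were -2.17 (SE 0.57) in DNP versus CON and 2.62 (SE 0.57) in BAC versus DNP. BAC versus CON was 0.45 (SE 0.52), and it was -0.01 without BAC replicate 1, -0.31 without the 3 libraries with brainstem markers and -0.32 with the brainstem score as a covariate.

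Gpc6 (ENSMUSG00000058571, chr14:116925315-117976544, plus strand) encodes glypican 6, a heparan sulfate proteoglycan tied to the cell surface. Its counts were 96, 238 and 120 in CON, 45, 24 and 46 in DNP and 137, 100 and 120 in BAC. The highest value was in CON replicate 2, the library with the highest cerebellar score, and DNP lay below both other groups. The log2 fold changes were -2.0 (SE 0.42) in DNP versus CON and 1.62 (SE 0.42) in BAC versus DNP. BAC versus CON was -0.38 (SE 0.40), and it was 0.14 without CON replicate 2.

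Among the transporters, Slc13a4 (ENSMUSG00000029843, chr6:35267957-35308131), a sodium-coupled sulfate transporter, had 17.6, 17.7 and 20.9 CPM in CON, 4.92, 9.15 and 9.79 in DNP and 18.7, 15.5 and 11.1 in BAC. All DNP values were below the lowest BAC value, and BAC replicate 3 was nearest to DNP. Its log2 fold changes were -1.24 (SE 0.29) and then 0.93 (SE 0.29).

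Slc22a6 (ENSMUSG00000024650, chr19:8618039-8628299) encodes the organic anion transporter OAT1, known from the kidney. It had 7.56, 6.70 and 8.85 CPM in CON, 3.11, 4.1 and 1.97 in DNP and 4.29, 7.94 and 6.55 in BAC. BAC replicate 1 was only slightly above DNP replicate 2. The changes were -1.33 (SE 0.33) in DNP versus CON and 1.03 (SE 0.33) in BAC versus DNP.

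Slc6a13 (ENSMUSG00000030108, chr6:121300227-121337733) encodes GAT2, a transporter of GABA and taurine outside neurons. Its values were 5.97, 10.3 and 9.48 CPM in CON, 4.64, 5.26 and 4.66 in DNP and 8.06, 10.5 and 8.38 in BAC. CON replicate 1 was closest to DNP. The log2 fold changes were -0.82 (SE 0.24) in DNP versus CON and 0.89 (SE 0.25) in BAC versus DNP.

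Aldh1a2 (ENSMUSG00000013584, chr9:71215789-71296243) encodes an enzyme that makes retinoic acid, which meningeal fibroblasts release. It had 7.03, 9.34 and 8.50 CPM in CON, 4.56, 7.24 and 1.71 in DNP and 12.3, 9.60 and 11.5 in BAC. DNP replicate 2 was within the CON range, and every BAC value was above every CON value. The changes were -0.88 (SE 0.43) in DNP versus CON and 1.31 (SE 0.44) in BAC versus DNP. Without DNP replicate 3 they were -0.49 and 0.91, and without DNP replicate 2 they were -1.41 and 1.83.

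Foxc1 (ENSMUSG00000050295, chr13:31806633-31812476) encodes a forkhead transcription factor needed to form the meninges. Its values were 7.76, 9.98 and 12.2 CPM in CON, 5.87, 9.08 and 6.44 in DNP and 7.41, 9.67 and 8.50 in BAC. The 3 groups overlapped, and the log2 fold changes of -0.49 (SE 0.25) and 0.26 (SE 0.25) were the smallest of the 10 genes in both comparisons.

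Lum (ENSMUSG00000036446, chr10:97565128-97572703) encodes lumican, a small proteoglycan that binds collagen. It had 20, 26 and 21 counts in CON, 14, 13 and 21 in DNP and 55, 27 and 30 in BAC. DNP replicate 3 was within the CON counts, and BAC replicate 1 was the highest. The changes were -0.50 (SE 0.39) and then 1.23 (SE 0.39).

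Igf2 (ENSMUSG00000048583, chr7:142650766-142666816, minus strand) encodes insulin-like growth factor 2, which meninges and choroid plexus both secrete. It had 59.2, 68.0 and 75.4 CPM in CON, 26.7, 39.3 and 43.7 in DNP and 56.4, 47.2 and 60.4 in BAC. DNP lay below both other groups. The changes were -0.89 (SE 0.20) and then 0.58 (SE 0.20). Exons of Gm49394 on the same strand and of Igf2os on the opposite strand overlap Igf2, so its counts are uncertain to that extent.

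Per length, in mean FPKM (counts scaled to gene length and library size) of the CON mice, Igf2 was highest at 5.01 ± 0.691 (SD, n = 3). Aldh1a2 followed at 3.58 ± 0.624, then Slc13a4 at 3.21 ± 0.334, Slc6a13 at 2.51 ± 0.741 and Slc22a6 at 1.86 ± 0.239. Foxc1 was at 1.67 ± 0.393, Gpc6 at 1.22 ± 0.690, Slc47a1 at 0.629 ± 0.304, Lum at 0.620 ± 0.131 and Mpzl2 at 0.132 ± 0.0223. Neighbours in this order overlapped between libraries, except that Igf2 was above Aldh1a2 and Lum above Mpzl2 in every CON library.

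The meningeal content of each library was scored from 21 fibroblast markers that are not members and passed the filter, of 22 listed. Perivascular fibroblasts share most of these markers. This and the other marker lists were chosen with earlier results of these libraries known, so p-values of scores may not be free of that choice. The scores were -0.14, 0.26 and 0.28 in CON, -0.46, -0.07 and -0.56 in DNP and 0.31, 0.16 and 0.23 in BAC. CON replicate 1 lay below DNP replicate 2, and all BAC libraries were above all DNP libraries. DNP was 0.50 lower than CON (difference -0.50, exact two-sided permutation p = 0.2), and BAC was 0.60 higher than DNP (exact permutation p = 0.1). With 3 mice against 3, 0.1 is the smallest p that the 20 arrangements allow, so this design could not pass 0.05. BAC and CON differed by 0.10 (exact permutation p = 0.7). Summed, the markers took 205 to 260 CPM in CON, 146 to 191 in DNP and 214 to 272 in BAC, and by this measure DNP overlapped neither group.

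Of the 21 markers, 18 were lower in DNP than in CON, 8 of them without overlap, against 8.63% of all genes tested. Their median log2 fold change was -0.55 against 0.01 over all genes tested. In BAC versus DNP, 18 were higher, 10 without overlap, against 3.38% of all genes, with a median of 0.68 against -0.01. None had an adjusted p under 0.05 in edgeR. Since the markers were chosen with earlier results of these libraries known, the counts are given as a description. Aebp1, a collagen-binding matrix protein, had a mean CPM of 23.5 ± 2.32 among CON, 16.1 ± 1.68 among DNP and 30.1 ± 5.34 among BAC mice (SD, n = 3). Prelp, a small proteoglycan, had 27.1 ± 1.54, 17.8 ± 3.76 and 21.5 ± 4.97. Cemip, a hyaluronan-degrading protein, had 33.0 ± 7.10 in CON and 17.3 ± 3.02 in DNP, and it was at 16.3 ± 5.01 in BAC.

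The members' place relative to this score was examined within groups, since the comparisons behind the choice of members were between groups. Earlier results of these libraries were known when members and markers were chosen. The p-values may therefore not be free of that choice. Group means were removed from the gene and from the score, and libraries were permuted within groups (every arrangement, two-sided). The p-values given for each gene are unadjusted, and adjustment was over the 10 genes. For Mpzl2, Pearson's r was 0.37 (exact permutation p = 0.579) and Spearman's rho 0.15 (p = 0.778). For Slc47a1, r was 0.44 (exact permutation p = 0.287) and rho 0.45 (p = 0.236). For Gpc6, r was 0.03 (exact permutation p = 0.968) and rho 0.07 (p = 0.912). The largest r values were those of Aldh1a2 (0.76, exact permutation p = 0.0648) and Foxc1 (0.76, exact permutation p = 0.134). No gene passed, and every adjusted p was 0.448 or more. With 9 mice, a p that misses the threshold does not show that a gene and the score vary independently.

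The 2 libraries farthest from the median score were DNP replicates 3 and 1. Without them r was 0.90 for Slc47a1, -0.50 for Mpzl2 and 0.72 for Gpc6, so the values for all 3 genes depended on those libraries. The only DNP library left equals its own group mean, so these r values come from the CON and BAC libraries alone. Over the 9 libraries with group means kept in, r was 0.86 for Mpzl2, 0.85 for Slc47a1 and 0.72 for Gpc6. That measure contains the group differences by which the genes were selected, and it is given as a description.

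**Figure D2:**
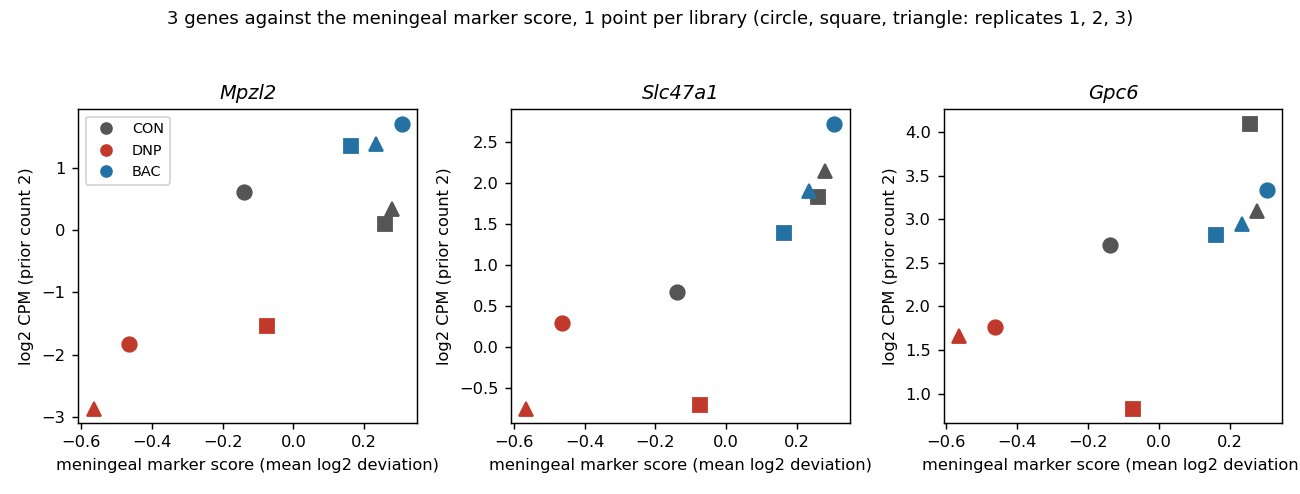
Log2 CPM (vertical axis) of Mpzl2, Slc47a1 and Gpc6 against the meningeal marker score (horizontal axis); each symbol is 1 of the 9 libraries, coloured by group. The DNP libraries sit at the lower left in each panel, and DNP replicate 2, with a score of -0.07, is lower in all 3 genes than CON replicate 1, with a score of -0.14.

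Other tissue contents were set beside the same 3 genes. Slc47a1 varied within groups with the cerebellar score at r = 0.87 (exact permutation p = 0.0139) and rho 0.92 (exact permutation p = 0.0139). With the brainstem and spinal cord score, r was 0.68 (exact permutation p = 0.0324) and rho 0.75 (exact permutation p = 0.0463). Gpc6 varied with the cerebellar score at r = 0.71 (exact permutation p = 0.0463) and rho 0.78 (exact permutation p = 0.037). None of these r values passed adjustment over the 24 pairs of gene and list, with adjusted p of 0.333, 0.370 and 0.370. For Mpzl2 the cerebellar value was 0.11 (exact permutation p = 0.838), and its largest was 0.82 with border-associated macrophage markers (exact permutation p = 0.162), a list of which 4 of 7 genes passed the filter.

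Choroid plexus scores were 0.82, 0.06 and 1.06 in CON, 0.13, -1.75 and 0.88 in DNP and 1.92, -1.85 and -1.26 in BAC. They overlapped between groups. Of the 13 markers, 10 were lower in DNP than in CON (median -0.49) and 11 higher in BAC than in DNP (median 0.47). The score went the other way in BAC versus DNP (difference -0.15, exact permutation p = 0.9). Among the BAC libraries only replicate 1 had a positive score. The part of these markers in the members' values was not tested. Arachnoid barrier scores overlapped between groups as well, and 3 of 5 of these markers were below CON in DNP, with 3 of 5 lower in BAC than in DNP. Mural cell markers were lower in DNP than in CON for 4 of 8 genes and lower in BAC than in DNP, and than in CON, for 8 of 8. Their scores were lower in every BAC than in every CON library, by -0.38 (exact permutation p = 0.1, the smallest possible). Schwann cell markers were lower for 3 of 3 and then for 2 of 3 genes. Endothelial scores were lower in every BAC than in every CON library, by -0.39 (exact permutation p = 0.1, the smallest possible), and 9 of 9 endothelial markers were lower in BAC than in DNP.

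**Figure D3:**
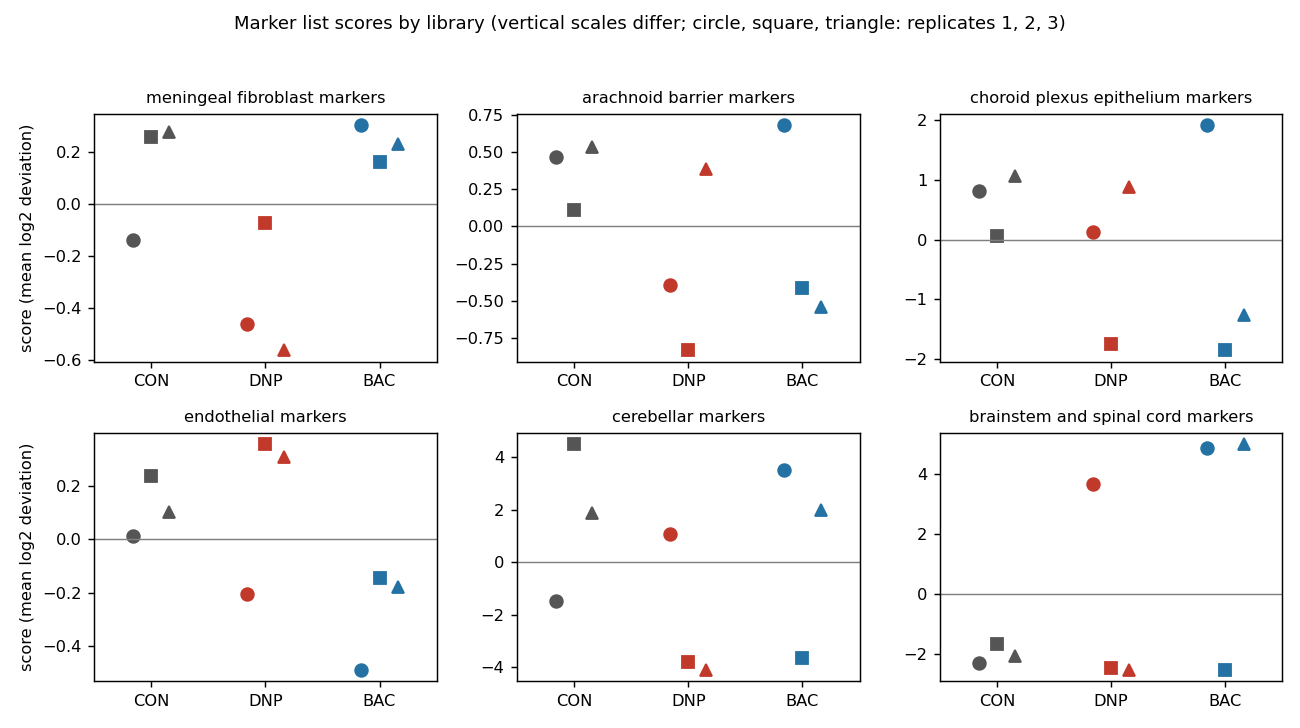
Scores (mean log2 deviation, vertical axis, scales differ) of 6 marker lists in the CON, DNP and BAC libraries; each symbol is 1 mouse. The meningeal scores of BAC lie above those of DNP, while cerebellar scores span -4.09 to 4.52 and brainstem scores are above 0 in DNP replicate 1 and BAC replicates 1 and 3.

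When the meningeal score was added to the model as a covariate, the 10 genes moved by unequal amounts. Mpzl2 went from -3.23 to -2.96 (SE 0.89) in DNP versus CON and from 4.43 to 4.08 (SE 1.06) in BAC versus DNP. Gpc6 went from -2.0 to -1.84 (SE 0.84) and from 1.62 to 1.45 (SE 0.92). Slc47a1 went from -2.17 to -1.08 (SE 0.99) and from 2.62 to 1.41 (SE 1.11). The shift of Slc47a1 was about the size of its standard error with the score added, and larger than that without the score (0.57 in both comparisons). Neither standard error measures the uncertainty of a shift, and differences in shift between genes were not tested.

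Among the other members, Aldh1a2 went from -0.88 to 0.03 (SE 0.48) in DNP versus CON and from 1.31 to 0.17 (SE 0.56) in BAC versus DNP. Slc6a13 went to -0.37 (SE 0.38) and 0.38 (SE 0.42), Slc13a4 to -1.03 (SE 0.47) and 0.68 (SE 0.54), and Slc22a6 to -1.0 (SE 0.49) and 0.64 (SE 0.56). Foxc1 went to 0.05 (SE 0.33) and -0.36 (SE 0.37). Lum went to -0.41 (SE 0.70) and 1.13 (SE 0.80), and Igf2 to -0.68 (SE 0.34) and 0.33 (SE 0.38). The score differs between groups, so group and score share information and the standard errors of all 10 genes grew in both comparisons. The fit does not separate the parts of treatment and meningeal content.

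**Figure D4:**
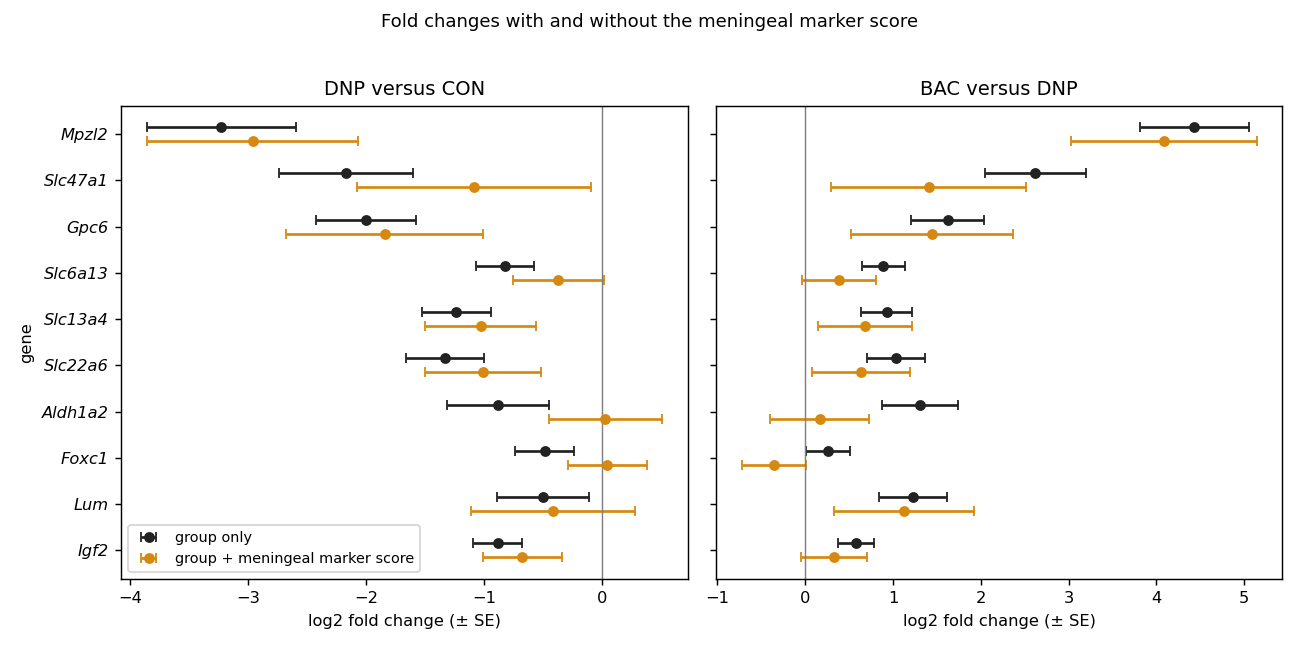
Log2 fold changes (horizontal axis, bars are SE) of the 10 genes for DNP against CON (left) and BAC against DNP (right), from the model with group only and from the model with the meningeal marker score added. Mpzl2 moves from -3.23 to -2.96 and Aldh1a2 from -0.88 to 0.03 in DNP versus CON.

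With the cerebellar score as the covariate, chosen after the data were seen, Slc47a1 was -1.43 (SE 0.41) in DNP versus CON and 2.06 (SE 0.39) in BAC versus DNP, and Gpc6 was -1.47 (SE 0.38) and 1.29 (SE 0.34). Mpzl2 was -3.22 (SE 0.68) and 4.43 (SE 0.63). Without the 3 libraries with brainstem markers, which leaves 2 DNP mice and 1 BAC mouse (assumed to vary like the other groups), Mpzl2 was -3.41 (SE 0.91) and 4.47 (SE 1.02), Slc47a1 -2.69 (SE 0.61) and 2.39 (SE 0.72), and Gpc6 -2.19 (SE 0.57) and 1.57 (SE 0.68).

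The families around the members were also read. Of 15 tested organic ion and solute transporters other than the members, 12 were lower in DNP than in CON (median -0.26) and 9 higher in BAC than in DNP (median 0.51). Slc6a20a, a transporter of proline, had a mean CPM of 22.3 ± 5.77 for CON, 14.3 ± 3.01 for DNP and 22.6 ± 0.389 for BAC (SD, n = 3). Slc16a11, a monocarboxylate transporter, had log2 fold changes of -1.24 (SE 0.51) and 0.53 (SE 0.51), and Slc22a4, a carrier of ergothioneine, had -1.41 (SE 0.92) and 1.33 (SE 0.92). Of 10 meningeal transcription factors, 8 were lower in DNP (median -0.51) and 7 higher in BAC than in DNP (median 0.61). Foxd1, Osr1 and Tbx18 of this list are also among the 21 markers, so the list and the score are not separate. Foxd1 had 2.55 ± 0.574, 1.54 ± 0.268 and 2.77 ± 0.544 CPM. Prrx1 had log2 fold changes of -0.47 (SE 0.33) and 0.54 (SE 0.33), and Lef1, an effector of Wnt signalling, of 0.29 (SE 0.47) and -1.07 (SE 0.47). No gene of these lists had an adjusted p under 0.05 in edgeR.

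Of 16 retinoic acid genes, 9 were lower in DNP than in CON (median -0.05), and of 13 genes of the insulin-like growth factor axis 7 were lower (median -0.21). In BAC versus DNP, 11 of the 16 were higher (median 0.20), and 7 of the 13 were lower again (median -0.13). In DNP versus CON, Aldh1a1, Rxra and Rdh11 had log2 fold changes of 0.36 (SE 0.91), 0.20 (SE 0.28) and -0.35 (SE 0.20), and Igfbp5, Igf1r and Insr had -0.49 (SE 0.14), -0.33 (SE 0.16) and -0.23 (SE 0.34). Among 12 glypicans and small proteoglycans, 7 were lower in DNP (median -0.61) and 9 higher in BAC than in DNP (median 0.45). Of these, Prelp, Dcn, Fmod and Ogn are also markers of the meningeal score, as is Crabp2 among the retinoic acid genes. These lists and the score are therefore not separate. Gpc1 had a mean CPM of 98.8 ± 9.49 for CON, 103 ± 6.86 for DNP and 105 ± 12.0 for BAC (SD, n = 3), and Gpc5 had log2 fold changes of 0.36 (SE 0.39) and 0.13 (SE 0.39). The relatives of Mpzl2, Mpzl1 and Mpzl3, had log2 fold changes of -0.25 (SE 0.26) and -0.76 (SE 0.48) for DNP against CON and of 0.23 (SE 0.26) and 0.13 (SE 0.48) for BAC against DNP.

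The genes most like Mpzl2 over the 9 libraries, among 16773 with a mean of at least 1 CPM, were Ogn (r = 0.92) and Omd (0.91), both small proteoglycans of connective tissue, followed by Pcdha7, Gm21970 and Sox9 (0.90 to 0.89). Ogn is also among the 21 markers. Those most like Slc47a1 were Prex2 (0.94), Pank3, Ints8, Zbtb20 and Rbpj-ps3 (0.92), and those most like Gpc6 were Polr3a (0.96), Bptf, Spata32, Pcdhgb2 and Dtna (0.93). The median r with the 21 markers was 0.63 for Mpzl2, 0.67 for Slc47a1 and 0.58 for Gpc6, against -0.04, -0.04 and -0.03 with all genes. These likenesses include the group differences and the shared libraries, and they carry no test.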

How the data were processed

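Poly(A) RNA of whole brain from 9 mice was read in paired-end mode without strand information, and groups were taken from the sample labels. Per the labels, the authors used FastQC 0.11.9, fastp, Bowtie2 2.3.4.1, HISAT2 2.1.0, StringTie 1.3.3b and the GRCm38 genome. The deposited count table holds raw counts per gene. The deposited FPKM table equals count over length and library total (implied lengths agreed within a ratio of 1.0001 over 15521 genes), without a TMM factor.

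Counts were tested with the quasi-likelihood test of edgeR 4.0.16 in R 4.3.3 (TMM, filterByExpr with a minimum count of 10, group as the factor, 9 libraries in 1 model, Benjamini-Hochberg over 18501 genes, threshold 0.05). Alternatives used DESeq2 1.42.0, limma 3.58.1 on log2(FPKM + 1) or log2(FPKM + 0.1), RLE factors, no filter, a replicate block, marker scores as covariates and each library left out. Log2 CPM for scores used a prior count of 2. The pipeline was tested on simulated data. Chi-square per degree of freedom within groups was 15.2 to 117, so no library was a duplicate of another in its group. Libraries of different groups were not compared in this way. Gene positions are from GENCODE M21 (GRCm38).

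The members, marker lists, tests and the rule for named genes were chosen with earlier results of these data known. Named genes are the 10 members, the 3 tested genes with the highest mean CPM in each list and any gene past the threshold, and the 5 genes most like Mpzl2, Slc47a1 and Gpc6. Genes that other lists share with the meningeal markers are also named. For lists that only describe tissue content, scores or counts are given in place of single genes. Intervals cover counting error only.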

Additional observations from a re-analysis of the deposited data

How the results depend on the processing

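DESeq2 called 281 genes for DNP against CON, 3 for BAC against DNP and 89 for BAC against CON where edgeR called 0. DESeq2 was given 35095 genes in place of 18501, before its own filter on mean counts. Without the low-count filter, edgeR also called 0 on 35095 genes in each comparison. The cause of the difference between the tools was not tested. Leaving out 1 library gave 0 to 1 calls for DNP or BAC against CON (1 without CON replicate 2 or 3) and 0 for BAC against DNP. With group means kept in, r with the meningeal score was 0.86 for Mpzl2, 0.85 for Slc47a1 and 0.72 for Gpc6, values that contain by construction the group differences on which the genes were chosen, so no test is read from them. With 1 library left out, the within-group r ranged from -0.12 to 0.80 for Mpzl2 (-0.09 without DNP replicate 2, -0.12 without DNP replicate 3), from 0.023 to 0.88 for Slc47a1 (0.65 without DNP replicate 1 and 0.88 without DNP replicate 2, exact permutation p = 0.0139 each) and from -0.55 to 0.71 for Gpc6 (-0.55 and -0.32 without CON replicates 1 and 2, -0.03 and -0.01 without BAC replicates 1 and 2). The score difference ranged from -0.65 to -0.40 for DNP against CON, from 0.50 to 0.75 for BAC against DNP and from -0.034 (without CON replicate 1) to 0.17 for BAC against CON. Aldh1a2 turned to 0.028 in DNP versus CON with the meningeal score as covariate. On log2(FPKM + 1) the change of Mpzl2 in DNP versus CON was -0.16, as the pseudocount exceeds its values. The covariates of cerebellar and brainstem scores and the fit without 3 libraries were chosen after seeing the data.

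Same-numbered mice did not deviate together (r from -0.58 to 0.56 over 9 pairs, 3 above 0.1, and 2 of 9 libraries closest to their own number). With a replicate block edgeR called 0 genes in each comparison, and the within-group r was 0.68 for Mpzl2, 0.72 for Slc47a1 and 0.04 for Gpc6. With 3 mice per group, differences between mice limit these values, and depth does too for Mpzl2 (0 to 3 counts per DNP library), Slc47a1 (7 to 15) and Lum (13 to 21).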
